A study of Mus musculus with 10 samples.

Results

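Respiratory complex I genes were examined in interscapular brown adipose tissue (iBAT) of Axl KO and wild-type (WT) mice. Members were the protein-coding genes of the GENCODE M21 annotation (mouse genome build GRCm38) whose symbol begins with Nduf and whose mean over the 10 mice exceeded 1 CPM (CPM, the count of a gene scaled to a common library size after TMM normalization). All 46 protein-coding genes with such a symbol in the deposited counts passed this level, out of 13739 genes of any kind that passed it and 41249 gene identifiers in all. They comprise 36 genes of complex I subunits, 8 genes of Ndufaf assembly factors, and Ndufa4 and Ndufa4l2, which carry the name but are not counted as complex I subunits here. The member nearest to the limit was Ndufa4l2, with 4.72 ± 1.33 CPM in Axl KO and 5.21 ± 0.542 CPM in WT mice (SD, n = 5 each). No protein-coding Nduf gene listed in the deposited counts lay below the limit.

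Both groups consisted of mice fed a high-fat diet (HFD) without restriction at room temperature for 24 weeks from 6 to 8 weeks of age according to the sample records, whereas the study's text gives a slightly longer exposure and a somewhat later starting age and describes these mice as male. Axl encodes a receptor tyrosine kinase, and the constitutive whole-body Axl KO allele carries a gene-trap cassette with a splice acceptor inside the Axl gene. It was derived from 2 clones of embryonic stem cells and bred with C57Bl6 mice, so the allele is present in every tissue. The study describes the WT mice as littermate controls, with 5 mice per genotype and 1 library per mouse, and the labels do not say which mice shared a litter. RNA was taken from the whole depot, so each value averages over all cell types in it. A difference in the number of cells of a type and a difference in RNA per cell cannot be told apart in such samples.

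Complex I is the entry point of NADH into the mitochondrial respiratory chain. Its matrix arm oxidises NADH and passes the electrons along iron-sulfur clusters to ubiquinone, and its membrane arm pumps protons. The core subunits, which carry the catalysis, are shared with bacteria. Those of the matrix arm are encoded in the nucleus and those of the membrane arm in the mitochondrial genome. The accessory (supernumerary) subunits surround the core, and assembly factors build the complex without remaining in it. In brown adipocytes the proton gradient made by the respiratory chain is dissipated as heat through uncoupling protein 1 (Ucp1).

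The libraries held 5431014 to 8214841 counts in Axl KO and 5952427 to 9580215 counts in WT mice, and the subunit with the fewest counts in a library still had 299. Axl had 3 to 15 counts in the 5 Axl KO libraries and 224 to 383 in the WT libraries. Its level was 1.57 ± 0.646 CPM in Axl KO and 43.1 ± 5.86 CPM in WT mice (SD, n = 5 each, adjusted p = 1.10e-07, edgeR's quasi-likelihood test), so the libraries matched their labels. The defining brown adipocyte marker Ucp1 was abundant in both groups (5561 ± 1197 and 4119 ± 863 CPM), and 0 of 8 B and T cell markers passed 1 CPM. The skeletal muscle markers differed widely between mice. Their 12 genes summed to 25.5, 6.61, 1864, 663 and 3700 CPM in Axl KO replicates 1 to 5 and to 3544, 919, 4291, 3432 and 869 CPM in WT replicates 1 to 5. Skeletal muscle is itself rich in complex I.

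To show the DNA in front of contrasting members, the sequence before the start of 4 genes is printed. These are Ndufb4 and Ndufb3, distal membrane arm subunits at higher mean levels in Axl KO mice, Ndufaf4, the assembly factor with the largest difference, and Ndufv1, a core subunit with nearly equal levels. The sequences come from the RefSeq promoter table (build GRCm38.p6), read 5′ to 3′ on the gene's strand, and bases that GENCODE M21 places inside the gene were left off. Capitals mark letters that match the binding motif of NRF1 (nuclear respiratory factor 1), an activator of many respiratory genes.
Ndufb4, chr16:37654454-37654618, minus strand, 165 bases: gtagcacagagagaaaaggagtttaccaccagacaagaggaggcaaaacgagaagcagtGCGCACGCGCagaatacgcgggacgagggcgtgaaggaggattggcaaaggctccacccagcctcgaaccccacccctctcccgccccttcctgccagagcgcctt
Ndufb3, chr1:58586147-58586383, plus strand, 237 bases: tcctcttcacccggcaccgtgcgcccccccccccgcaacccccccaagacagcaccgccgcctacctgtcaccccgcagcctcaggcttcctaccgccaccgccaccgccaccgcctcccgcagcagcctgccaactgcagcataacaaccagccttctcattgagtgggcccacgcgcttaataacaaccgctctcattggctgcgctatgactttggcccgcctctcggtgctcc
Ndufaf4, chr4:24897833-24898082, plus strand, 250 bases: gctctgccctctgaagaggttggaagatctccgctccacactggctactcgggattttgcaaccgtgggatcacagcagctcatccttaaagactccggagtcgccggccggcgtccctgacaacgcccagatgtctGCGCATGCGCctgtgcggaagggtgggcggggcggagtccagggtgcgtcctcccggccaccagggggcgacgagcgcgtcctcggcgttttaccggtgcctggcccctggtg
Ndufv1, chr19:4012807-4013005, minus strand, 199 bases: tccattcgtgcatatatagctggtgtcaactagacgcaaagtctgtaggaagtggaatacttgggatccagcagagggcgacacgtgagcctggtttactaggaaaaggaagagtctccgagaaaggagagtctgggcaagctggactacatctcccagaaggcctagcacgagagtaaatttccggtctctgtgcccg

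The letters of 3 motifs were searched on both strands, in windows from 250 bases before to 50 bases after each RefSeq start. The NRF1 motif was the 4 letters GCGC, 1 base of any kind, and the 5 letters TGCGC. The motif of the estrogen-related receptors (ERR) was TNAAGGTCA, and that of YY1, a further regulator of mitochondrial genes, was AANATGGCG. The table held windows for 40 of the 46 members, among them 34 windows of 32 subunit genes. The NRF1 motif was present in 8 of the 34 subunit windows (23.5%, from 7 genes), compared with 4.60% of all 32851 windows of the table. YY1 letters were present in 7 subunit windows (20.6%, compared with 2.38% of all), and ERR letters in 1 (2.94%, compared with 1.28%). At least 1 of the 3 motifs was found in 14 subunit windows (41.2%, compared with 7.92% of all) and in 3 of the 7 windows of Ndufaf genes.

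Ndufb4 held the most matches of any member. Its window contained the NRF1 letters 191, 79 and 22 bases before the RefSeq start, and the ERR letters TGAAGGTCA 57 bases before it. All but the match at 191 bases lie within the GENCODE gene and therefore outside the printed stretch. Both windows of Ndufa5 contain the same NRF1 match, and Ndufaf4 has one 113 bases before its start. The windows of Ndufs4 and Ndufc1 contain the YY1 letters 35 and 22 bases after the start. The windows of Ndufb3 and Ndufv1 contain none of the 3 motifs. These are matches of letters and not measured binding sites.

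Levels of the subunits in WT iBAT spanned a wide range. Per kilobase of the exons of each gene, the median of the 36 subunits was 182 CPM, the lowest 19.7 and the highest 528. Among the highest were Ndufb9, an accessory subunit of the distal membrane arm, at 528 ± 22.8, and Ndufv1, the core subunit that binds NADH and flavin, at 455 ± 23.1 CPM per kilobase (SD, n = 5 WT mice). These 2 differed by more than their SDs. The 3 lowest were Ndufb2 at 19.7 ± 1.4, Ndufb4 at 30.0 ± 1.7 and Ndufab1 at 30.3 ± 1.5 CPM per kilobase, the last 2 being within their spread.

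The scale depends on which exons are counted. Ndufb2 and Ndufab1 have annotated transcripts of 4371 and 3479 nucleotides, far longer than those of most subunits. Per kilobase of the longest coding transcript alone, the median rose to 297 CPM, with Ndufb9 again the highest and the same 3 genes at the low end. Ndufb9 shares 23.4% of the 50-base stretches of that transcript with Gm49356, an overlapping gene on the same strand that had 16312 counts over the 10 mice against 41128 for Ndufb9. Of the 3 lowest, Ndufb4 shares 37.0%, Ndufab1 12.3% and Ndufb2 2.29% of such stretches with other genes. The part of shared stretches in these levels was not tested. The WT mice varied little for subunits, with a median coefficient of variation of 4.64%, compared with 9.50% for the Ndufaf genes and 11.3% for all genes tested. These sets differ in depth: subunits had at least 299 counts in every library, whereas Ndufaf2 had 64 in WT replicate 4. Counting noise is larger at low counts, and its part in these values was not tested.

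**Figure D1:**
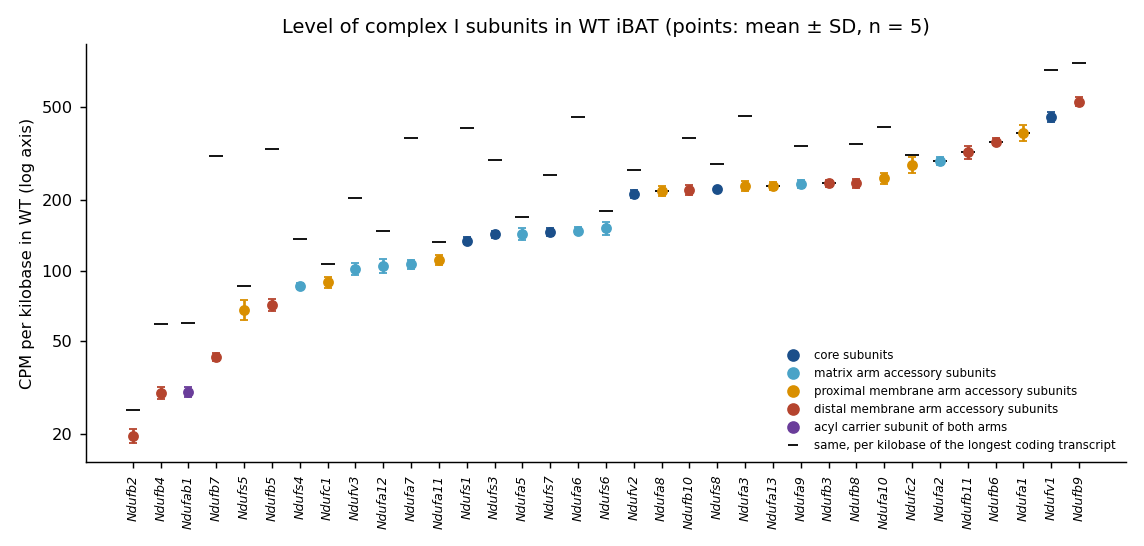
Mean level of 35 complex I subunits in WT iBAT in CPM per kilobase of exon (log axis, bars are the SD of 5 mice), ordered from Ndufb2 at 19.7 to Ndufb9 at 528, with colours for the position of the subunit. Black dashes give the same level per kilobase of the longest coding transcript, which is higher for Ndufb7, Ndufb5 and Ndufa7, among others, than the points.

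The comparison of Axl KO with WT mice asked whether loss of the receptor was accompanied by a different level of complex I transcripts. No member passed an adjusted p under 0.05 (edgeR's quasi-likelihood test, Benjamini-Hochberg adjustment over 13739 genes, lowest adjusted p of a member 0.571). Across all genes, 0.00728% were called, and that 1 gene was Axl. Most subunits had slightly higher mean levels in Axl KO mice. The log2 fold change (Axl KO over WT) was above 0 for 33 of 36 subunits (91.7%), compared with 49.8% of all genes tested. The median subunit differed by 0.09 on the log2 scale (6.64%), compared with -0.00059 for all genes, with a range from -0.04 to 0.24.

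At an unadjusted p under 0.05, 7 of 36 subunits (19.4%) were higher and 0 were lower in Axl KO mice. In all genes tested, 4.54% were higher and 3.86% lower at this level. The DESeq2 test gave 9 subunits at this unadjusted level, and likewise none after adjustment. Over all 13739 genes, DESeq2 gave 508 higher and 444 lower at this level. The 7 subunits from edgeR were Ndufa3, Ndufb4, Ndufb3, Ndufv2, Ndufs4, Ndufc1 and Ndufa5. The 95% intervals of the log2 fold change reached down to -0.17 (Ndufv1) and up to 0.39 (Ndufa3) over the 36 subunits.

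**Figure D2:**
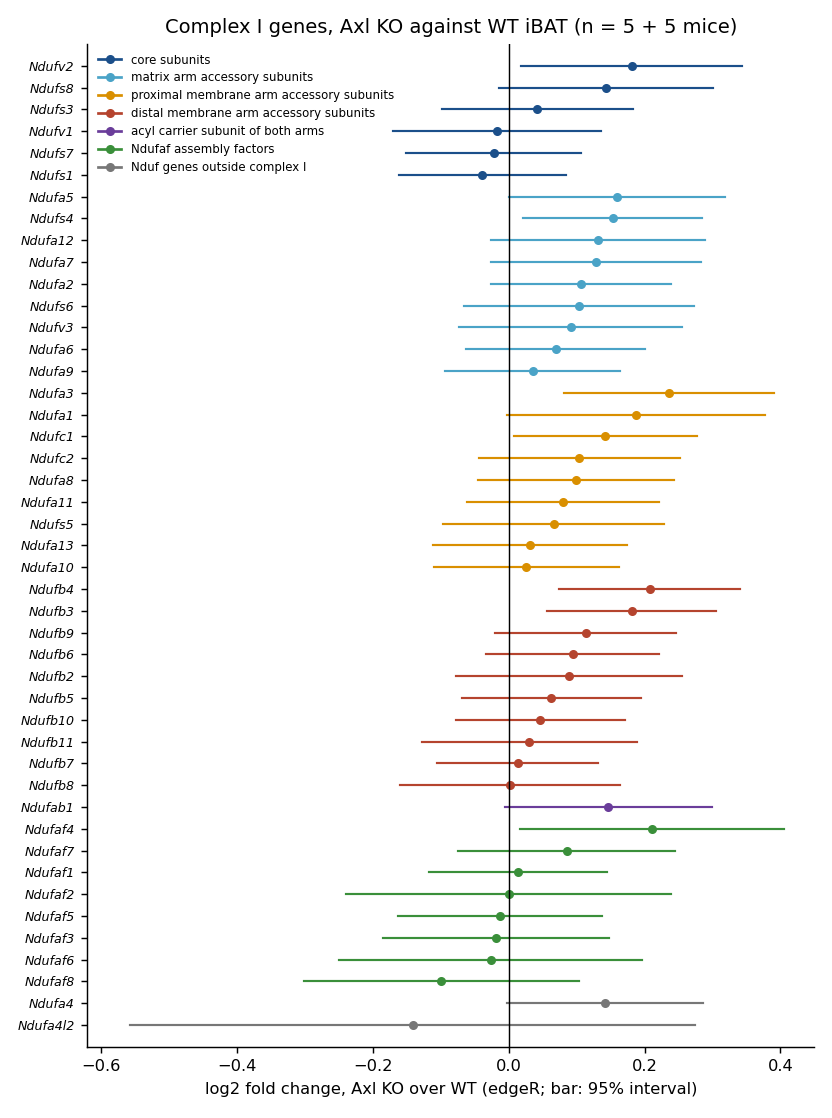
Log2 fold change of the Nduf genes (35 of the 36 subunits are shown) between 5 Axl KO and 5 WT mice from edgeR (points) with its 95% interval (bars), grouped by the role of the gene. Points lie right of 0 for 32 of the 35 subunits and for 3 of 8 Ndufaf genes, and intervals exclude 0 for 7 subunits and Ndufaf4.

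Among the 7 nucleus-encoded core subunits, 4 were higher and 3 lower in the Axl KO group, the median log2 fold change being 0.03. Ndufv2, which carries an iron-sulfur cluster in the NADH-oxidising module, had 528, 502, 438, 539 and 588 CPM in Axl KO replicates 1 to 5 and 463, 468, 443, 477 and 437 CPM in WT replicates 1 to 5. Axl KO replicate 3 lay within the range of the WT mice and the other 4 Axl KO mice above it. The log2 fold change was 0.18 ± 0.08 (SE, unadjusted p = 0.0316, adjusted p = 0.571, exact permutation p = 0.0556, two-sided). Ndufs8, which holds iron-sulfur clusters near the ubiquinone site, had 338, 309, 265, 325 and 354 CPM in Axl KO and 284, 291, 293, 287 and 286 CPM in WT mice. Again replicate 3 was the exception, here below all WT mice, and the log2 fold change was 0.14 ± 0.07 (SE, adjusted p = 0.608).

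Further core subunits were close to equal between genotypes. Ndufs3 had 328, 305, 291, 319 and 363 CPM in Axl KO and 312, 326, 300.3, 315 and 306 CPM in WT mice, a log2 fold change of 0.04 ± 0.07 (SE), which was -0.0063 without Axl KO replicate 5. The groups overlapped broadly. Ndufv1 had 1129, 1325, 1082, 1268 and 1119 CPM in Axl KO and 1177, 1297, 1150, 1215 and 1153 CPM in WT mice. Ndufs7, which lies at the ubiquinone pocket, had 260.3, 256, 221, 251 and 250.1 CPM in Axl KO and 244, 252.01, 269, 249 and 244 CPM in WT mice. Ndufs1, the large subunit that carries several iron-sulfur clusters, had 1034, 1121, 1025, 1104 and 1003 CPM in Axl KO and 1093, 1140, 1036, 1097 and 1066 CPM in WT mice.

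These last 3 were the only subunits with a mean below that of WT mice, with log2 fold changes of -0.02 ± 0.07 for Ndufv1, -0.02 ± 0.06 for Ndufs7 and -0.04 ± 0.06 for Ndufs1 (SE), and their groups overlapped. Ndufv1 was at 0.014, 0.0016 and 0.013 without Axl KO replicate 3, Axl KO replicate 5 and WT replicate 2, and Ndufs7 at 0.016 and 0.0032 without Axl KO replicate 3 and WT replicate 3. The 95% interval for Ndufs1 ran from -0.16 to 0.08. Ndufs1 overlaps Eef1b2 on the opposite strand, and the strand setting of the counting is not given in the sources used here.

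All 9 accessory subunits of the matrix arm had higher means in the Axl KO group, the median log2 fold change being 0.11, and 2 had an unadjusted p under 0.05. Ndufs4, whose loss in mice gives a mitochondrial encephalopathy, had 262, 239, 243, 268 and 286 CPM in Axl KO and 239, 239, 236, 230.4 and 223 CPM in WT mice. The lowest Axl KO mouse lay at the level of the highest WT mouse, and the log2 fold change was 0.15 ± 0.06 (SE, unadjusted p = 0.0268, adjusted p = 0.571, exact permutation p = 0.0238). Ndufa5 had 169, 171, 141, 166 and 185 CPM in Axl KO and 149, 147, 152, 160.2 and 136 CPM in WT mice. Replicate 3 of the Axl KO group fell among the WT mice and the other 4 above them (log2 fold change 0.16 ± 0.07, SE, unadjusted p = 0.04996, adjusted p = 0.595, exact permutation p = 0.0794). The remaining 7 (Ndufa2, Ndufa6, Ndufa7, Ndufa9, Ndufa12, Ndufs6 and Ndufv3) lay between 0.04 for Ndufa9 and 0.13 for Ndufa12 on the log2 scale.

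All 9 accessory subunits of the proximal membrane arm likewise had higher means, with a median log2 fold change of 0.10. Ndufa3 had 275, 269.8, 247, 274 and 322 CPM in Axl KO and 227, 248, 227, 248 and 229 CPM in WT mice. It showed the largest difference of any subunit, 0.24 ± 0.07 on the log2 scale (SE, unadjusted p = 0.00581, adjusted p = 0.571, exact permutation p = 0.0238), and replicate 3 was the single Axl KO mouse that did not exceed the WT mice. Its exons overlap Tfpt on the opposite strand. Ndufc1 had 149, 149.5, 129.7, 153 and 155 CPM in Axl KO and 132, 134, 127, 145 and 129 CPM in WT mice (log2 fold change 0.14 ± 0.06, SE, unadjusted p = 0.0400, adjusted p = 0.579, exact permutation p = 0.0397). Replicate 3 alone of the Axl KO mice lay within the WT range.

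Ndufa1, an X-linked membrane subunit needed for assembly of the complex, had 199.7, 207, 150.1, 191 and 180.1 CPM in Axl KO and 154, 181, 166, 165 and 147 CPM in WT mice. Of the Axl KO mice 3 exceeded all WT mice, and the difference of 0.19 ± 0.09 on the log2 scale (SE) had an unadjusted p of 0.0531 (adjusted p = 0.599). It was the third-largest difference among the subunits. The other 6 of this arm (Ndufa8, Ndufa10, Ndufa11, Ndufa13, Ndufc2 and Ndufs5) ranged from 0.03 for Ndufa10 to 0.10 for Ndufc2.

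In the distal membrane arm all 10 accessory subunits had higher means in the Axl KO group, the median log2 fold change being 0.08. Ndufb3 had 224, 211, 189.8, 199 and 200.05 CPM in Axl KO and 178, 180.4, 187, 184 and 172 CPM in WT mice. It was the only member whose groups did not overlap, that is, every Axl KO mouse exceeded every WT mouse, as 0.735% of all genes tested did. The log2 fold change was 0.18 ± 0.06 (SE, unadjusted p = 0.00780, adjusted p = 0.571), and the exact permutation p of 0.00794 is the smallest that 5 mice against 5 can give. Ndufb4 had 67.4, 66.9, 60.0, 67.0 and 70.8 CPM in Axl KO and 53.9, 59.8, 54.0, 60.5 and 59.1 CPM in WT mice. Replicate 3 of the Axl KO group lay within the range of the WT mice and all other Axl KO mice above it (log2 fold change 0.21 ± 0.06, SE, unadjusted p = 0.00509, adjusted p = 0.571, exact permutation p = 0.0159).

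Ndufb4 shares 37.0% of the 50-base stretches of its longest coding transcript with 3 other genes, the largest share of any member. The deposited counts list none of those genes. The remaining 8 subunits of the distal arm lay between 0.0022 for Ndufb8 and 0.11 for Ndufb9 on the log2 scale. Ndufb8 shares 4.06% of such stretches with Gm20538, an overlapping gene on its strand. Ndufb1-ps, which the annotation lists as a noncoding RNA and which is therefore no member, had 142 ± 3.85 CPM in Axl KO and 136 ± 9.31 CPM in WT mice (SD, n = 5 each, log2 fold change 0.06).

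Ndufab1, the mitochondrial acyl carrier protein that sits in both arms of the complex and also serves mitochondrial fatty acid synthesis, had 241, 220.3, 201, 235 and 257 CPM in Axl KO and 221, 211, 195, 214 and 203 CPM in WT mice. The groups overlapped, and the log2 fold change was 0.15 ± 0.07 (SE, unadjusted p = 0.0575, adjusted p = 0.601). Ndufa4, a subunit of cytochrome c oxidase in spite of its name, had 807, 842, 682, 789.8 and 771 CPM in Axl KO and 730.5, 710.1, 712, 723 and 651 CPM in WT mice. Of its 5 Axl KO values 4 exceeded all WT values and replicate 3 did not (log2 fold change 0.14 ± 0.07, SE, unadjusted p = 0.0524, adjusted p = 0.599, exact permutation p = 0.0476). Ndufa4l2, its hypoxia-inducible paralogue, was scarce, with 4.63, 3.01, 6.64, 4.22 and 5.08 CPM in Axl KO and 5.19, 5.71, 5.43, 4.30 and 5.41 CPM in WT mice (log2 fold change -0.14 ± 0.19, SE, adjusted p = 0.856). The Axl KO mice included both the lowest and the highest value.

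**Figure D3:**
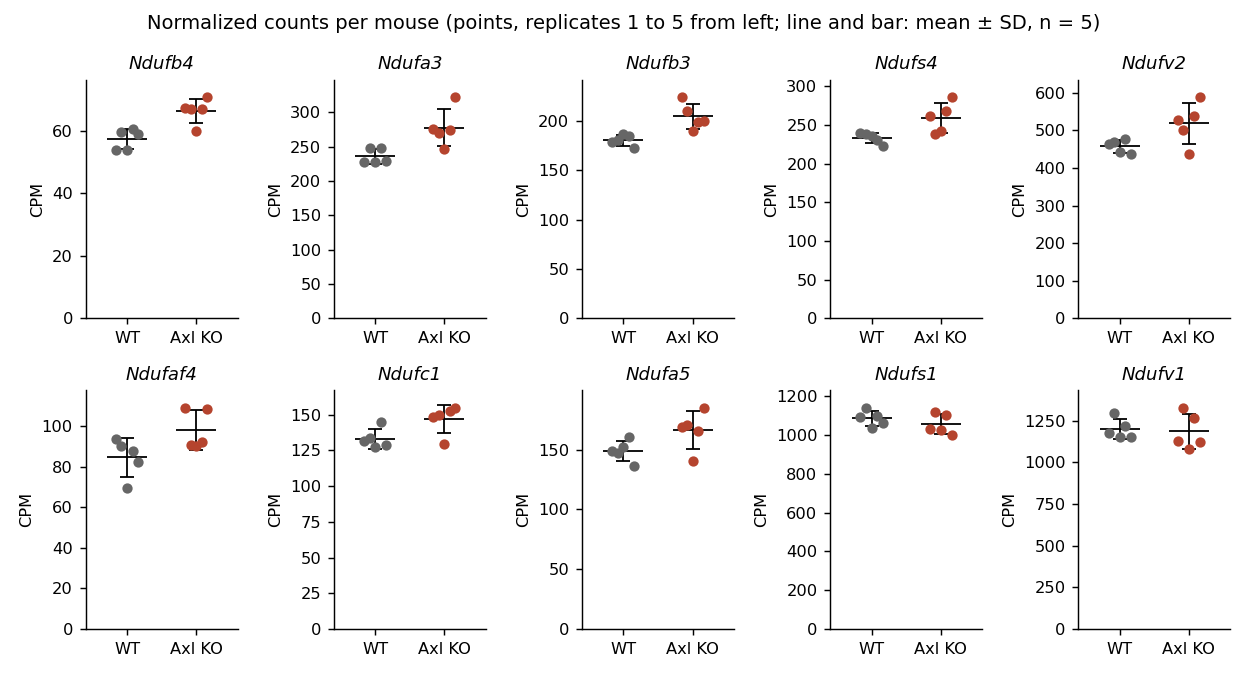
Normalized counts (CPM, axes from 0) per mouse for the 8 members with an unadjusted p under 0.05 and for Ndufs1 and Ndufv1, with points for replicates 1 to 5 from left to right and the mean ± SD of 5 mice as lines. Only Ndufb3 separates the groups fully, the middle Axl KO point (replicate 3) is the lowest of its group in 8 of the 10 panels, and Ndufs1 and Ndufv1 overlap broadly.

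The assembly factors were split in direction. Of the 8 Ndufaf genes 3 had higher and 5 lower means in the Axl KO group, the median log2 fold change being -0.0064. An unadjusted p under 0.05 was found for 1 of the 8 (12.5%), compared with 8.4% of all genes tested. That gene was Ndufaf4, which acts together with Ndufaf3 early in assembly. It had 109, 90.6, 90.3, 92.4 and 109 CPM in Axl KO and 93.9, 90.1, 69.4, 88.0 and 82.7 CPM in WT mice. The groups overlapped, with 2 Axl KO mice above all WT mice, and the log2 fold change was 0.21 ± 0.09 (SE, unadjusted p = 0.0354, adjusted p = 0.571, exact permutation p = 0.0635). Without Axl KO replicate 1, Axl KO replicate 5, WT replicate 3 or WT replicate 5, 0 Ndufaf genes had an unadjusted p under 0.05. At the other end was Ndufaf8, a partner of Ndufaf5, with 17.1, 15.6, 14.1, 15.4 and 17.5 CPM in Axl KO and 15.6, 15.7, 16.4, 17.9 and 19.8 CPM in WT mice (log2 fold change -0.10 ± 0.09, SE, adjusted p = 0.787).

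The other 6 Ndufaf genes lay within 0.03 of 0 on the log2 scale apart from Ndufaf7, a mitochondrial methyltransferase, at 0.09 ± 0.07 (SE). The number of Ndufaf genes above 0 depended on single mice and reached 6 of 8 without WT replicate 2 and 5 of 8 without Axl KO replicate 4 or WT replicate 1. It fell with the trend over exon length removed within each library, where only Ndufaf4 and Ndufaf7 were above 0. Whether assembly factors and subunits differ from each other in their response was not tested. Of the 14 further assembly genes listed, which lack the Nduf name, 13 passed the level filter, 11 of these had higher means in Axl KO mice, their median log2 fold change was 0.09 and 0 had an unadjusted p under 0.05.

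The membrane arm's core subunits are encoded in the mitochondrial genome, and 6 of those 7 genes passed the filter. Of these, 4 had higher and 2 lower means in the Axl KO group (median log2 fold change 0.03), and 0 were at an unadjusted p under 0.05 (lowest adjusted p 0.747). Their replicate variation was larger than that of the nucleus-encoded subunits, with a median coefficient of variation of 15.8% in WT mice. Hardly counted at all were mt-Nd3, at 3.31 CPM in Axl KO and 1.81 CPM in WT mice, and mt-Nd4l, at 0.0609 and 0.0252 CPM. They are named after their values were seen.

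The genes of the other respiratory complexes gave the context for these values. For complex II, 3 of 4 genes had higher means in the Axl KO group, the median log2 fold change being 0.02, and 0 had an unadjusted p under 0.05. For complex III, 8 of 9 were higher, with a median of 0.08, and Uqcrb had an unadjusted p under 0.05 (518 ± 17.1 and 479 ± 15.4 CPM, log2 fold change 0.11 ± 0.05, SE, adjusted p = 0.588). For complex IV, 12 of 12 were higher, also with a median of 0.08, and 3 passed that level, namely Cox7a1, Cox7a2 and Cox8b. Cox8b, a muscle and brown fat form of a complex IV subunit, had 1210 ± 81.4 CPM in Axl KO and 1025 ± 40.7 CPM in WT mice (SD, n = 5 each, log2 fold change 0.24 ± 0.06, SE, adjusted p = 0.571). For ATP synthase, 10 of 15 were higher, with a median of 0.04, and Atp5e and Atp5j2 passed that level. The median of the complex I subunits (0.09) thus lay beside those of complexes III and IV, and differences between the complexes were not tested.

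Individual mice departed from their groups in a common way across subunits. Axl KO replicate 3 had the lowest value of its group for 33 of 36 subunits and the lowest of all 10 mice for 12. Among WT mice, replicate 5 was the lowest for 18 and replicate 3 for 13. The highest value of all 10 mice was in Axl KO replicate 5 for 14 subunits and in Axl KO replicate 2 for 10. The summed level of the 36 subunits was 13095, 13288, 11595, 13309 and 13096 CPM in Axl KO replicates 1 to 5 and 12391, 12824, 12029, 12554 and 11957 CPM in WT replicates 1 to 5. Thus 4 Axl KO mice exceeded all WT mice and replicate 3 lay below all of them.

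Without Axl KO replicate 3, 35 of 36 subunits had higher means in Axl KO mice and the median log2 fold change was 0.14. In that fit 16 had an unadjusted p under 0.05, but still 0 an adjusted p under 0.05. The calls at the unadjusted level also rose over all 13739 genes, to 1059 higher and 969 lower from 624 and 530 with all 10 mice. Leaving out any other mouse gave 31 to 34 higher subunits and a median of 0.07 to 0.11, and removing Axl KO replicate 4, Axl KO replicate 5 or WT replicate 5 left 3 with an unadjusted p under 0.05. Removing Axl KO replicate 1 or WT replicate 3 left 4. Over all genes, leaving out a mouse other than Axl KO replicate 3 gave 386 to 613 higher and 397 to 590 lower at that level. In Axl KO replicate 3 the white adipocyte markers summed to 645 CPM, the highest of the 10 mice (210.6 to 590 CPM in the others). Lep alone made up 595 CPM of this sum. As the mean log2 CPM over the markers, centred on the 10 mice, that mouse was at 0.26, below WT replicate 1 at 0.37. Of those 7 markers 4 passed the filter, while Hoxc9 and Tcf21 were at 0 in every library. The macrophage markers summed to 255 CPM in that mouse (141 to 242 CPM in the others). Their centred mean log2 CPM was 0.35 in that mouse and 0.36 in WT replicate 5. The part of these markers in the result was not tested.

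**Figure D4:**
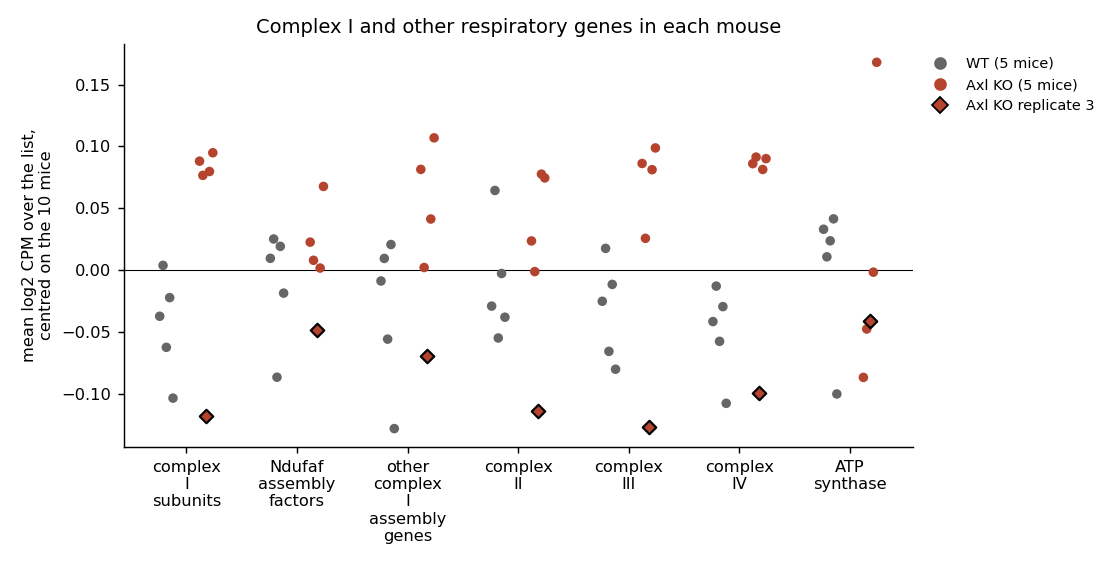
Mean log2 CPM over the genes of each list in every mouse, centred on the mean of the 10 mice, for complex I subunits, Ndufaf and other assembly genes and the other respiratory complexes (grey, WT; red, Axl KO; diamond, Axl KO replicate 3). For the complex I subunits 4 Axl KO mice lie above 0 and above all WT mice, and replicate 3 lies at -0.12, below all WT mice.

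Markers of brown adipocytes mostly had higher means in Axl KO mice. Of 10 brown adipocyte markers 9 were above 0, the median log2 fold change being 0.16, and 5 had an unadjusted p under 0.05 (Ucp1, Dio2, Elovl3, Cox7a1 and Cox8b). The log2 fold changes of the others were 0.19 (Zic1), 0.04 (Prdm16), 0.02 (Ppargc1a), 0.01 (Cidea) and -0.09 (Ebf2). Cox7a1 and Cox8b also belong to the complex IV list above. The list summed to between 8432 and 11623 CPM in Axl KO and between 6544 and 8686 CPM in WT mice. Ucp1 alone had 4854 to 7632 CPM in Axl KO and 2990 to 5040 CPM in WT mice. Fibroblast markers had lower means in Axl KO mice for 7 of 7 genes, 2 of them at an unadjusted p under 0.05 (Col1a1 and Col1a2), and summed to 453 to 741 CPM in Axl KO and 651 to 877 CPM in WT mice. Endothelial markers had higher means for 2 of 7 genes (sums of 509 to 638 and 510.1 to 726 CPM, with Egfl7 lower at an unadjusted p under 0.05) and macrophage markers for 4 of 9. All 12 muscle markers had lower means in the Axl KO group. Their median log2 fold change was -1.05, and 0 had an unadjusted p under 0.05. With the muscle markers as a covariate, 28 of 36 subunits were above 0, the median log2 fold change was 0.07 and 3 had an unadjusted p under 0.05. Over all 13739 genes, 511 were higher and 415 lower at that level in this fit. The part of the other cell type markers was not tested.

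Transcript length moved with the difference as well. Most subunits are small proteins, and 19 of the 36 have a longest coding transcript under 1000 nucleotides. Of these, 18 had higher means in Axl KO mice (median log2 fold change 0.10), compared with 15 of the 17 longer ones (median 0.06). Among all genes tested that have a coding transcript, 418 of 598 short ones were above 0 with a median of 0.07, whereas 5623 of 11488 longer ones were above 0 with a median of -0.0033. Across the 36 subunits the log2 fold change and the log2 length had a Pearson r of -0.30 and a Spearman rho of -0.30, as a description across genes, which share libraries and are not independent. A trend over exon length was also removed within each library, with length taken as the union of exons and not the longest coding transcript. In that fit 30 of 36 subunits were above 0, the median log2 fold change was 0.05 and 6 had an unadjusted p under 0.05. Over all 13739 genes, 670 were higher and 490 lower at that level. Removal of a trend over the longest coding transcript was not tested.

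**Figure D5:**
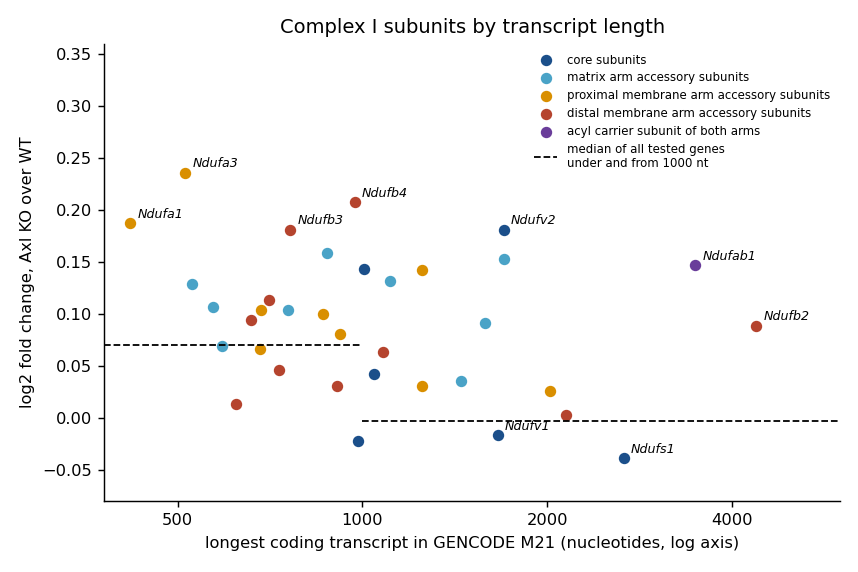
Log2 fold change (Axl KO over WT) of 35 complex I subunits against the length of the longest coding transcript (nucleotides, log axis), coloured by position in the complex. Dashed lines give the median of all genes tested under 1000 nucleotides (0.07) and from 1000 nucleotides (-0.0033), and 18 of the 19 short subunits lie above 0.

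The identity of the counts was examined for each member, since the treatment of reads that match several genes is not given in the sources used here. Of the 46 members 29 share no 50-base stretch of their longest coding transcript with another annotated gene, 17 share some and 0 share at least 50%. Of the 17, 5 share stretches with a gene that the deposited counts list. After Ndufb4, the largest shares were those of Ndufs3 (35.8%), Ndufs5 (31.1%) and Ndufa12 (26.2%). As with Ndufb4, the genes that share with these are not listed in the deposited counts. Exons of another gene overlap 19 members, 16 of them subunits. Of the subunits with an unadjusted p under 0.05, Ndufv2, Ndufs4 and Ndufa5 have neither shared stretches nor overlapping genes.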

How the data were processed

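Whole iBAT depots of 5 Axl KO and 5 WT mice gave 1 RNA library each, grouped and numbered by the sample records. The authors deposited 1 table per mouse with raw counts of reads per Ensembl gene, neither normalized nor pooled over mice. The sample records name polyA RNA, and the submitters' processing notes name Trimmomatic 0.36, STAR 2.6.1c and GRCm38.p5, whereas the study's methods describe depletion of rRNA, Trim Galore and hisat2. The counting tool and its strand setting are not given in the sources used here. Of 41249 identifiers, 41163 matched GENCODE M21.

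Counts were compared with edgeR 4.0.16 in R 4.3.3 (quasi-likelihood test with TMM scaling and no covariate) over 13739 genes with a mean above 1 CPM, with Benjamini-Hochberg adjustment. The procedure was tested on simulated data. Single genes were compared by two-sided exact permutation tests over 252 splits. Gene lists are described by counts and medians, without a test. CPM per kilobase used the union of exons.

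The 46 members, the lists and the motifs were chosen with earlier results of these data known. Values per mouse are given for members with an unadjusted p under 0.05 and the 3 highest and 3 lowest log2 fold changes among subunits. They are also given for the highest and lowest among Ndufaf genes, the 7 core subunits, Ndufab1, Ndufa4 and Ndufa4l2. Genes of other lists are named at an unadjusted p under 0.05. Exceptions, named after their values were seen, are the other brown adipocyte markers, Lep, Hoxc9, Tcf21, mt-Nd3 and mt-Nd4l. Each mouse was 1 replicate, since the tables of any 2 mice differed by a chi-square of at least 5.39 per gene, and which mice shared a litter or cage is not given in the labels. Totals of 5431014 to 9580215 counts set the precision of low genes. Alternatives were DESeq2 1.42.0, filterByExpr or no filter in edgeR, RLE size factors, a robust fit, protein-coding genes alone, a muscle covariate, removal of length and GC trends, a replicate block and each mouse left out. Values of 1 subunit are not reported here, although it is included in the counts and medians. The trend with length and GC together was added after the data were seen.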

Additional observations from a re-analysis of the deposited data

Results flagged for a closer look

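Among 94 groups of 5 values checked (each member and Axl in each genotype), 9 had a lowest value that stood apart from the rest of its group by more than 0.71 of the group's range. Chance flags about 1 in 20 groups. In the Axl KO group these were Axl in replicate 4 (0.437 CPM, with 1.69 CPM next) and replicate 3 for Ndufa6 (247.7 CPM, next 282 CPM), Ndufb9 (524.5 CPM, next 599.8 CPM), Ndufc1 (129.7 CPM, next 149 CPM) and Ndufs7 (221.4 CPM, next 250.1 CPM). In the WT group they were replicate 3 for Ndufa10 (744.8 CPM, next 839 CPM) and Ndufb7 (179.2 CPM, next 196 CPM), and replicate 5 for Ndufa13 (267.3 CPM, next 290.2 CPM) and Ndufa4 (651.5 CPM, next 710.1 CPM). All 9 lay at the low end of their group. Without Axl KO replicate 3, the log2 fold change of Ndufs7 turned from -0.02 to 0.02.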

How the results depend on the processing

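No member passed an adjusted p under 0.05 in any alternative. The median log2 fold change of the subunits stayed above 0 in each, between 0.05 (length trend removed with the replicate block, 0.0484, and length and GC trends removed, 0.0487) and 0.14 (without Axl KO replicate 3). DESeq2 called 9 genes in all, compared with 1 by edgeR. The number of subunits at an unadjusted p under 0.05 was 7 in the report. It was 3 with the muscle covariate, 3 with the length trend removed and a replicate block, and 4 with length and GC trends removed. With 1 mouse left out it was 3 to 16. Over all genes tested, 386 to 1059 were higher and 397 to 969 lower at that level in these fits, compared with 624 and 530 in the report. The Ndufaf genes at that level numbered 0 with the muscle covariate and 0 to 1 with 1 mouse left out. With 1 mouse left out, the Ndufaf genes above 0 numbered 3 to 6, and their median ran from -0.02 to 0.02. With the length trend removed, only Ndufaf4 (0.212) and Ndufaf7 (0.0838) among them were above 0. The same held with length and GC trends removed. Per kilobase of the longest transcript, the median WT level was 297.1 instead of 182 CPM. Of 420 combinations of a named gene and an alternative, 413 kept direction and side of an adjusted p of 0.05, and 7 changed sign. Since no member passed that threshold in any fit, keeping its side does not measure stability at the unadjusted level. The 7 changes were in Ndufa4l2, Ndufs3, Ndufs7 and Ndufv1. Ndufa4l2 was at 0.0465 with the muscle covariate, and Ndufs3 at -0.0063 without Axl KO replicate 5. Ndufs7 was at 0.016 and 0.0032 without Axl KO replicate 3 and WT replicate 3. Ndufv1 was at 0.014, 0.0016 and 0.013 without Axl KO replicate 3, Axl KO replicate 5 and WT replicate 2. With 1 mouse left out the ranges were -0.0063 to 0.0753 for Ndufs3, -0.0405 to 0.0157 for Ndufs7 and -0.0604 to 0.0137 for Ndufv1. The named genes were partly chosen by their p or log2 fold change in these same data, so the 413 do not describe all members. Some members outside that set changed sign more often with 1 mouse left out, among them Ndufaf2 (6 fits) and Ndufb8 (5 fits). Replicate numbers did not pair the mice: same-numbered mice had correlations of -0.358 to 0.373, and 1 of 5 matched its own number best. With a replicate block, 32 subunits were above 0, the median was 0.0903 and 5 had an unadjusted p under 0.05. The causes of these changes were not tested. Depth and 5 mice per group limit the precision to the intervals given.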
